A study of Mus musculus with 7 samples.

Results

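The mouse genes named *Tex* (testis expressed) followed by a number were described in fetal testis at embryonic day 14.5 (E14.5), in whole testes of wild-type (WT) and *Glis3* mutant (Mutant) embryos. Every row of the deposited gene table whose symbol starts with *Tex* and a digit was taken, which gave 29 of 24739 genes. The rule uses the symbol and no measured value. RNA-Seq libraries of 3 WT and 4 Mutant embryos were compared, each made from 1 pair of testes and labelled as C57BL/6 background. Mutant embryos were homozygous for *Glis3* zf5, a global null allele with a deletion in exon 4 and the introns beside it, so *Glis3* was disrupted in every cell of the embryo and no Cre was used. WT embryos carried no mutant allele according to their label. Ribosomal RNA was removed, random primers were used and poly-A tails were not selected for.

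*Tex* symbols were given to genes by where their transcripts were found, so the genes do not form a sequence family and their products work in unrelated processes. One group acts in germ cells: TEX14 holds intercellular bridges open, TEX11, TEX12 and TEX15 serve meiotic chromosomes, and TEX19.1 and TEX15 also take part in the control of transposons. Another group works in most cells, in ribosome assembly (TEX10), lipid transfer (TEX2), transport from the endoplasmic reticulum (TEX261) and turnover of the endoplasmic reticulum (TEX264). Germ cells of the mouse fetal testis do not enter meiosis but stop dividing, and spermatids, in which many testis-specific transcripts appear, do not form until after birth.

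Levels are FPKM, the fragments per kilobase of transcript after scaling between libraries, as deposited. Sums of FPKM per library were between 694243 and 1018678, between 18644 and 19081 genes had a value above 0, and the number of fragments behind a value is unknown. *Glis3* itself was at 7.63 and 6.89 FPKM in WT replicates 1 and 2, 2.91 in the library labelled WT replicate 3, and 3.86, 3.26, 2.9 and 2.66 in Mutant replicates 1 to 4. FPKM covers the whole gene, with the exons that the allele retains. Because *Glis3* in the library labelled WT replicate 3 was as low as in Mutant, results are given with and without it. That library was singled out after its values were seen, so genes that pass a threshold only without it are no independent evidence of a difference. Germ cell markers (15 genes, such as *Ddx4* and *Dazl*) summed to 1890, 1460 and 921 FPKM in the WT libraries and to between 753 and 897 in the Mutant libraries. In such bulk samples, fewer germ cells and less RNA per germ cell cannot be told apart. The sum of 10 Sertoli cell markers was between 1040 and 1320 FPKM in WT and between 1270 and 1450 in Mutant, and that of 5 fetal Leydig cell markers between 1600 and 2660 in WT and between 2500 and 3070 in Mutant. All 15 germ cell markers had the lower mean in Mutant (47.9% of all genes tested), 5 of them without overlap between the groups (7.59%). All 5 Leydig cell markers had the higher mean, 2 of them without overlap (7.31%). The part of these cell types in the results was not tested.

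In E14.5 testis, 17 of the 29 genes averaged 0.5 FPKM or more (58.6%, against 56.5% of all genes of the table), and 15 reached 0.5 FPKM in every library. The 3 highest were *Tex19.1* with a mean of 51.9 FPKM, *Tex10* with 48 and *Tex30* with 40.4, followed by *Tex261* with 24, *Tex264* with 23.5 and *Tex14* with 17.3. FPKM is scaled to length, so these levels can be set side by side. A middle range from 15.9 to 5.31 FPKM held *Tex15*, *Tex12*, *Tex11*, *Tex19.2*, *Tex2*, *Tex101* and *Tex9* in that order, and neighbours in it, such as *Tex12* with 12.7 and *Tex11* with 12.3, were closer to each other than the libraries of either gene. *Tex21* (2.9), *Tex13* (2.3), *Tex40* (0.635) and *Tex16* (0.543) completed the 17.

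The other 12 genes were at or near 0. *Tex13a*, *Tex28* and *Tex29* were listed at 0 in all 7 libraries, which is no measure of depth since the table holds no counts. Means of the remaining 9 were 0.171 FPKM for *Tex33*, 0.142 for *Tex38*, 0.111 for *Tex22*, 0.0923 for *Tex26*, 0.055 for *Tex43*, 0.0446 for *Tex37*, 0.0319 for *Tex36*, 0.00491 for *Tex35* and 0.00476 for *Tex24*. No value of these 9 in any library was above 0.36 FPKM. *Tex24* was above 0 in WT replicates 1 and 2 only, at 0.0157 and 0.0176 FPKM, and *Tex35* in Mutant replicate 1 only, at 0.0343 FPKM. These 12 genes were not tested between genotypes. Spermatid markers, a list of 9 genes such as the protamines *Prm1* and *Prm2*, summed to between 0.14 and 3.13 FPKM, and *Ldhc* was the only one with a mean of at least 0.5 FPKM.

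**Figure D1:**
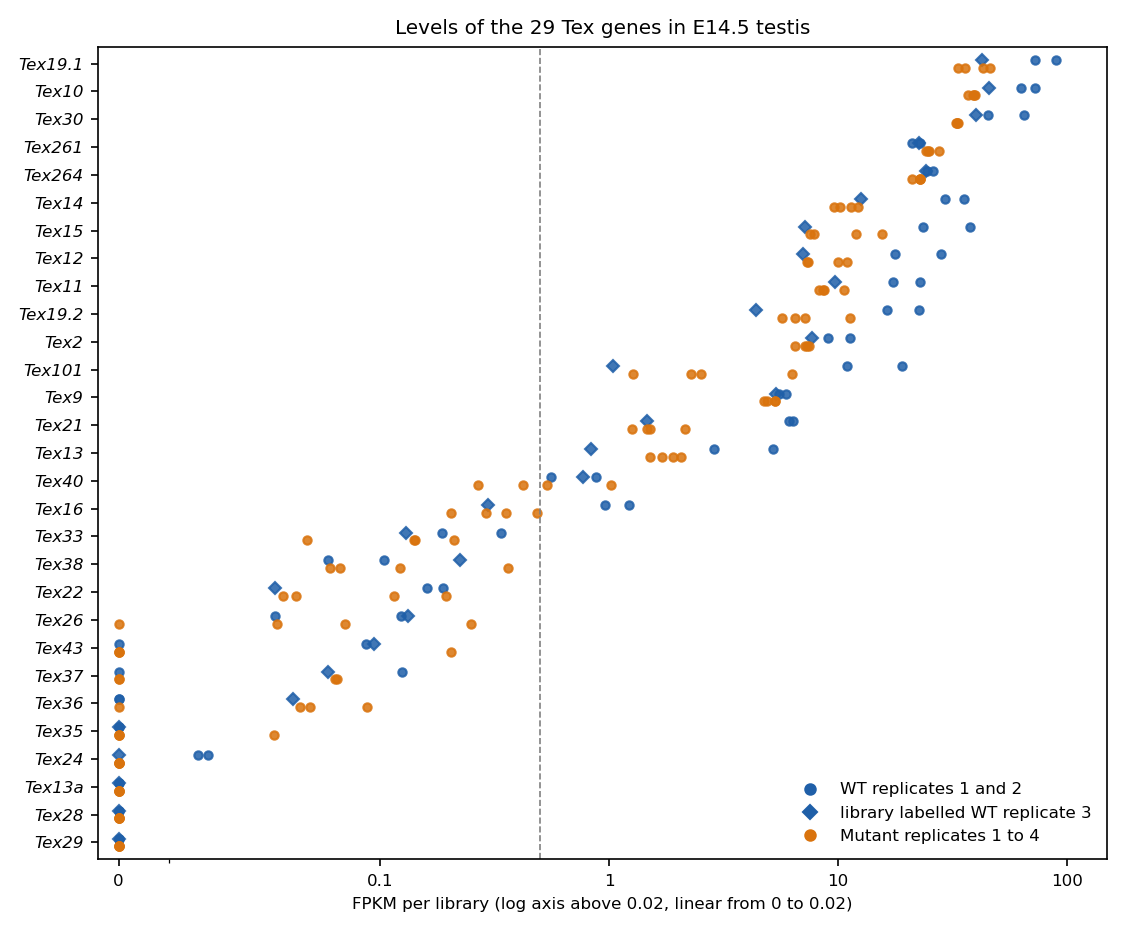
FPKM of each of the 29 Tex genes (rows, ordered by mean) in each of the 7 libraries, with WT libraries in blue and Mutant libraries in orange and a dashed line at 0.5 FPKM. The 17 upper genes are expressed in both genotypes, the 12 lower ones stay at or below 0.36 FPKM, and the library labelled WT replicate 3 (diamonds) lies among or near the Mutant libraries for most genes of the middle range.

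The question of the design is which genes differ between WT and *Glis3* mutant testes. Mutant group means of log2(FPKM + 0.5) were below those of WT for 16 of the 17 *Tex* genes and above for *Tex261*. Their log2 fold changes had a median of -0.61, while over all 13988 genes tested the median was 0.01 and 47.9% of genes had a lower mean in Mutant. On this scale the change of genes with low FPKM is understated. None of the 17 was past the threshold of 0.05 (limma, adjusted by the Benjamini-Hochberg method over all genes tested), where 1 gene of the table was (0.00715%). An unadjusted p under 0.05 was found for 9 genes with the lower mean in Mutant, against 8.79% of all genes tested, and for 1 with the higher mean, against 8.21%. All Mutant libraries lay below all WT libraries for 6 genes (*Tex10*, *Tex30*, *Tex264*, *Tex14*, *Tex2* and *Tex9*; 7.59% of all genes tested) and above them for *Tex261* (7.31%). Leaving out the library labelled WT replicate 3 changed these counts: 12 of the 17 genes fell past the threshold, where 5.15% of all genes tested passed it and 3.99% fell, and the median over the 17 was -0.94. With another program, Cuffdiff, the study called many more genes in these libraries at an adjusted p of 0.05 than limma did with all libraries. The reason for this difference was not tested.

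**Figure D2:**
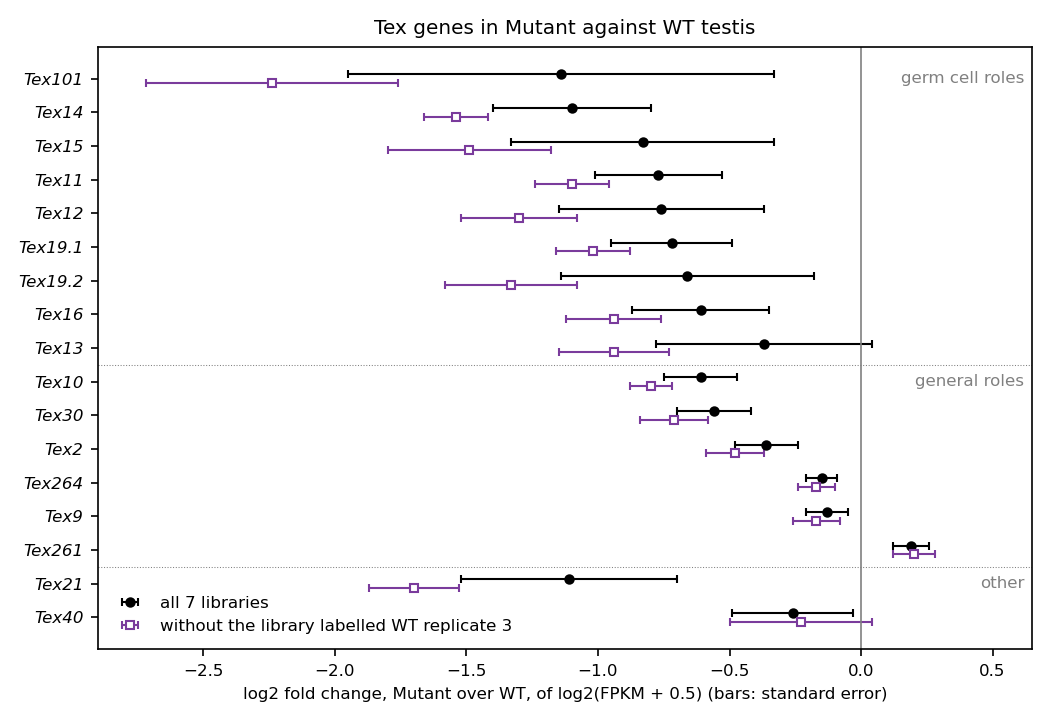
Log2 fold change (Mutant over WT, limma) of the 17 tested Tex genes with its standard error, from all 7 libraries (filled circles) and without the library labelled WT replicate 3 (open squares), grouped by role. Only Tex261 lies to the right of 0, and genes with germ cell roles move further to the left without that library, Tex101 from -1.14 to -2.24.

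Of the 10 genes with germ cell roles, 9 passed the filter on low values and *Tex13a* was listed at 0. All 9 had the lower mean in Mutant, the median log2 fold change was -0.76, 4 had an unadjusted p under 0.05 (8.79% of all genes tested in this direction) and 1 had groups that did not overlap (7.59%). Summed over the group, FPKM was 217, 237 and 85.8 in WT replicates 1 to 3 and 112, 86.2, 91.9 and 78.4 in Mutant replicates 1 to 4. WT replicates 1 and 2 were thus the 2 highest libraries, and the library labelled WT replicate 3 was below 3 of the 4 Mutant libraries. Without it all 9 genes fell past the threshold (3.99% of all genes tested), with a median of -1.3. That library was the lowest of WT in each of the 9 genes. Leaving it out favours such a result, which is therefore no independent evidence.

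*Tex14*, on chromosome 11 from 87405065 to 87555823 (mm10, plus strand), encodes the protein that keeps the bridges between dividing germ cells from closing. Its FPKM was 29.4, 35.7 and 12.7 in WT replicates 1 to 3 and 12.3, 9.6, 11.4 and 10.2 in Mutant replicates 1 to 4. Every Mutant library was below every WT library, although the gap between Mutant replicate 1 and the library labelled WT replicate 3 was small. WT averaged 25.9 ± 11.9 (SD, n = 3) and Mutant 10.9 ± 1.21 (SD, n = 4), a log2 fold change of -1.10 (standard error, SE, 0.30, limma adjusted p = 0.18). A two-sided exact permutation test gave p = 0.0286, the smallest it can give. Without the library labelled WT replicate 3 the log2 fold change was -1.54 and the adjusted p from limma 0.00388.

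*Tex19.1* and *Tex19.2* are paralogs on chromosome 11, from 121146143 to 121148313 (plus strand) and from 121116215 to 121118677 (minus strand), 27466 bases apart. TEX19.1 protects germ cells from retrotransposons and binds the ubiquitin ligase UBR2. The longest GENCODE M21 transcripts of the pair were identical at 77.8% of 1581 aligned bases and shared 2.95% of the 50-base words of *Tex19.1*, so reads in these stretches may have been split between both genes. *Tex19.1* was at 89.4, 72.4 and 42.7 FPKM in WT and 43.2, 33.6, 46.1 and 35.9 FPKM in Mutant. The library labelled WT replicate 3 lay within the Mutant range, and the log2 fold change was -0.72 (SE 0.23, limma adjusted p = 0.204) with all libraries and -1.02 (adjusted p = 0.0114) without it. *Tex19.2* was at 16.5, 22.7 and 4.4 FPKM in WT and 11.3, 7.15, 6.47 and 5.68 FPKM in Mutant, so that the library labelled WT replicate 3 was the lowest of all. Its log2 fold change was -0.66 (SE 0.48, limma adjusted p = 0.517) and -1.33 without that library (adjusted p = 0.0305).

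TEX11, TEX12 and TEX15 are meiotic proteins: TEX11 promotes synapsis and crossover, TEX12 is part of the central element of the synaptonemal complex, and TEX15 acts in recombination and, before birth, in the methylation of retrotransposons. *Tex11* (chromosome X from 100838648 to 101059639) was at 22.8, 17.3 and 9.71 FPKM in WT and 10.6, 8.68, 8.3 and 8.58 FPKM in Mutant, with a log2 fold change of -0.77 (SE 0.24, limma adjusted p = 0.204). *Tex12* (chromosome 9 from 50557148 to 50561268) was at 17.8, 28.2 and 7.01 FPKM in WT and 11, 10.1, 7.34 and 7.42 FPKM in Mutant, with a log2 fold change of -0.76 (SE 0.39, limma adjusted p = 0.361). For all 3 genes the groups overlapped through the library labelled WT replicate 3 alone. *Tex15* (chromosome 8 from 33570544 to 33585585) was at 23.5, 37.7 and 7.17 FPKM in WT and 15.5, 12, 7.89 and 7.53 FPKM in Mutant, and its log2 fold change was -0.83 (SE 0.50, limma adjusted p = 0.423). Without that library the log2 fold changes were -1.10 for *Tex11*, -1.30 for *Tex12* and -1.49 for *Tex15*, with adjusted p-values from limma of 0.00815, 0.0217 and 0.037.

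*Tex101* encodes a glycoprotein on the surface of germ cells that is needed for sperm to migrate into the oviduct. It lies on chromosome 7 from 24668012 to 24672050 and had the largest coefficient of variation of the tested members in both genotypes. Its FPKM was 11, 19 and 1.05 in WT replicates 1 to 3 and 6.3, 2.53, 2.29 and 1.27 in Mutant replicates 1 to 4, so that both the highest values and the lowest were WT. The log2 fold change was -1.14 (SE 0.81, limma adjusted p = 0.499), and -2.24 (adjusted p = 0.0419) without the library labelled WT replicate 3. *Tex101*, *Tex19.1* and *Tex21* stand in the heatmap of reduced genes that the study drew from these libraries, and *Tex13* and *Tex9* in that of unchanged genes, so their values are no independent evidence of a direction.

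*Tex13* and *Tex16* are X-linked germ cell genes. *Tex13* (RefSeq now uses *Tex13b*; chromosome X from 140808307 to 140813433) was at 5.22, 2.87 and 0.836 FPKM in WT and 1.71, 2.07, 1.9 and 1.51 FPKM in Mutant. The 4 Mutant libraries were close together between a pair of higher WT libraries and a lower one, and the log2 fold change was -0.37 (SE 0.41, limma adjusted p = 0.681). It was -0.94 (adjusted p = 0.0492) without the library labelled WT replicate 3, and turned to 0.11 without WT replicate 1. *Tex16* (chromosome X from 112093520 to 112127326) was at 0.96, 1.22 and 0.295 FPKM in WT and 0.291, 0.485, 0.203 and 0.354 FPKM in Mutant, with a log2 fold change of -0.61 (SE 0.26, limma adjusted p = 0.292) and of -0.94 (adjusted p = 0.0297) without that library.

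RefSeq promoter sequences (GRCm38.p6) were found for 23 of the 29 genes and not for *Tex11*, *Tex13a*, *Tex15*, *Tex22*, *Tex24* and *Tex43*. For 5 genes with germ cell roles, the 250 bases before the start site are shown: *Tex14* and *Tex101* had the largest fold changes of this group on the log2(FPKM + 0.5) scale (the ratio of mean FPKM, WT over Mutant, was 2.47 for *Tex16*, 2.39 for *Tex14* and 3.34 for *Tex101*), *Tex19.1* and *Tex19.2* are paralogs with different levels, and *Tex12* stands for the meiotic genes. Capitals mark TCCCGC, the core recognized by E2F6, and CCAAT, each on either strand. Matches of both motifs can overlap by at most 1 letter, and a match is a description of the letters and not of binding.
Tex14, chr11:87404815-87405064, plus strand: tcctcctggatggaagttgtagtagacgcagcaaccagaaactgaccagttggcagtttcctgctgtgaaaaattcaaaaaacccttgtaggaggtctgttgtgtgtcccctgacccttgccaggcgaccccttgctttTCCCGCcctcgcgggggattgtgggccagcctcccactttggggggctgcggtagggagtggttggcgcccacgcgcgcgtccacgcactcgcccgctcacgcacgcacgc
Tex19.1, chr11:121145893-121146142, plus strand: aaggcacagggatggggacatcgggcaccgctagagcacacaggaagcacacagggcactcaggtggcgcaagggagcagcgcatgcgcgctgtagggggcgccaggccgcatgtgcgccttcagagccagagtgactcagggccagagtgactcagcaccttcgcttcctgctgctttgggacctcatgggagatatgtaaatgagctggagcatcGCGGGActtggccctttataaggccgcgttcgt
Tex12, chr9:50561269-50561518, minus strand: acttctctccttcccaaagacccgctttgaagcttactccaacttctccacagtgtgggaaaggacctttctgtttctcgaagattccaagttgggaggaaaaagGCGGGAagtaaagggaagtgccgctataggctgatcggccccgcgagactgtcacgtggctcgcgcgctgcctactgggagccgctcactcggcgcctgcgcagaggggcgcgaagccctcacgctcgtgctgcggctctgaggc
Tex19.2, chr11:121118678-121118927, minus strand: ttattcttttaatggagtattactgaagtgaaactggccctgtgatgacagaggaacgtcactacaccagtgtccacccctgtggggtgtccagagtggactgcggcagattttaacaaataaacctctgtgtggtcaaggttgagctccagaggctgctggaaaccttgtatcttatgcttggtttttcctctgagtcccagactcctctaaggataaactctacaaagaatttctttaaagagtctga
Tex101, chr7:24672051-24672300, minus strand: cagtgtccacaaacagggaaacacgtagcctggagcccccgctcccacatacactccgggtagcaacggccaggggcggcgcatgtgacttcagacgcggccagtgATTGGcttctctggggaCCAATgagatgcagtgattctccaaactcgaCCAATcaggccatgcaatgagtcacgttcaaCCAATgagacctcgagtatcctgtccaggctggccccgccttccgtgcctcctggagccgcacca

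TCCCGC stood 111 bases before the start of *Tex14*, 33 before *Tex19.1* and 145 before *Tex12*, counted from the outer end of the match, and was not found in the windows of *Tex19.2* and *Tex101*. Of all 32851 mouse promoters of this length 16.9% held it, and of the 14039 promoters of the genes tested 29.1%. Among the *Tex* genes it was found for 8 of the 15 that were tested and have a promoter entry and for 0 of the 8 that were not tested. With germ cell roles it was found for 3 of 7 tested genes. The others were *Tex2*, *Tex30*, *Tex264*, *Tex9* and *Tex40*, so it was not particular to germ cell roles. *Tex264* held it in the entry whose start matched a transcript and not in its other entry. *Tex101* held 4 copies of CCAAT, where 33.8% of all promoters held at least 1 and 0.84% at least 4. The paralogs differed in these windows: *Tex19.1* had 15 CpG dinucleotides and a GC content of 61.6%, and *Tex19.2* had 2 and 44.4%. CpG counts of the tested *Tex* genes with an entry had a median of 14 (15 for all genes tested), and those not tested a median of 1.5.

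To set the 9 genes beside the germ cell markers, the mean log2(FPKM + 0.5) of the 15 markers in the same library was subtracted from each gene. That mean was 5.37, 4.93 and 4.3 in WT replicates 1 to 3 and 4.11, 4.01, 4.12 and 3.93 in Mutant replicates 1 to 4, a difference of -0.82 (exact permutation test, p = 0.0286). All Mutant libraries were below all WT libraries, and the library labelled WT replicate 3 was the nearest to them. Relative to the markers, the groups of all 9 germ cell *Tex* genes overlapped, with differences between -0.32 for *Tex101* and 0.46 for *Tex13* and exact permutation p-values between 0.114 and 0.943 (0.943 for each after adjustment over the 9). A p-value above the threshold does not show that a gene moved as the markers did. Because the markers themselves were lower in Mutant, 74.6% of all genes tested did not overlap and were higher on this relative scale, and 0.0429% were lower.

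The 9 genes differed in how closely they ran with the markers over the libraries. *Tex19.1* spanned 1.40 on the log2 scale between its highest and lowest library and 0.34 relative to the markers, with relative values of 1.12, 1.26 and 1.13 in WT and 1.34, 1.08, 1.43 and 1.25 in Mutant. *Tex11* likewise spanned 1.40 and then 0.35, with relative values of -0.83, -0.77 and -0.95 in WT and -0.63, -0.81, -0.98 and -0.75 in Mutant. Both genes therefore had nearly the same ratio to the marker mean in all 7 libraries. *Tex101* spanned 3.66 and still 3.04 relative to the markers, from -0.64 in WT replicate 2 to -3.68 in the library labelled WT replicate 3. *Tex15* (1.70), *Tex19.2* (1.62), *Tex12* (1.31), *Tex13* (1.24), *Tex14* (0.92) and *Tex16* (0.79) had relative ranges in between. In *Tex101*, *Tex15*, *Tex19.2*, *Tex12* and *Tex14*, WT replicate 2 was the highest library relative to the markers. The library labelled WT replicate 3 was the lowest for *Tex101*, *Tex15*, *Tex19.2*, *Tex12* and *Tex13*.

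**Figure D3:**
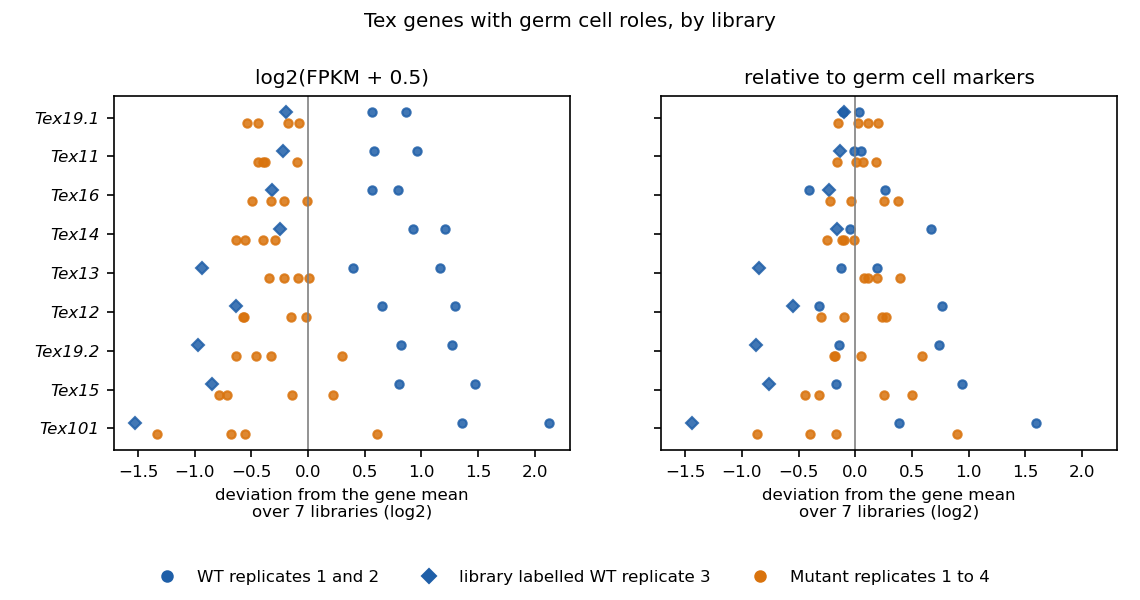
Deviation of each library from the gene mean over 7 libraries, for 9 Tex genes with germ cell roles, as log2(FPKM + 0.5) on the left and after subtracting the mean of 15 germ cell markers on the right. Points of Tex19.1 and Tex11 close up to ranges of 0.34 and 0.35 on the right, whereas those of Tex101 stay spread over 3.04.

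The partners of these proteins were taken as lists. All 7 genes of the synaptonemal complex list had the lower mean in Mutant (47.9% of all genes tested). The median log2 fold change was -0.75, and 1 had groups that did not overlap (7.59% of all genes tested). This was *Syce1* (16.2, 14.9 and 10.4 FPKM in WT and 7.57, 7.15, 9.85 and 8.5 FPKM in Mutant, log2 fold change -0.70, limma adjusted p = 0.168). Without the library labelled WT replicate 3, 6 of the 7 fell past the threshold (3.99% of all genes tested). The next smallest unadjusted p was that of *Syce3* (-0.85, limma adjusted p = 0.376). *Syce2*, the direct partner of *Tex12* in the central element, was the exception with a log2 fold change of -0.09. All 6 genes tested for the control of transposons in germ cells had the lower mean, with a median of -1.43, and the smallest unadjusted p-values were those of *Mov10l1* (log2 fold change -1.32, adjusted p = 0.217) and *Mael* (-1.55, adjusted p = 0.241), while *Ubr2* was at -0.13. Of this list 2 fell past the threshold without that library (3.99% of all genes tested). *Sycp3* and *Mael* of these lists are also among the germ cell markers. With all libraries, neither list held a gene past the threshold.

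All 8 tested genes of meiotic recombination also had the lower mean (47.9% of all genes tested). Their median was -0.17, with 0 genes past the threshold in either set of libraries. Of 6 genes for bridges between cells, 3 had the lower and 3 the higher mean, with a median of -0.07. *Cep55*, the abscission protein that TEX14 binds, had a log2 fold change of -0.16 (limma adjusted p = 0.507), and *Rbm44*, a germ cell protein of the bridge, was at 16.5, 11.1 and 12.8 FPKM in WT and 6.79, 8.19, 9.62 and 8.81 FPKM in Mutant (-0.65, limma adjusted p = 0.168). *Tsg101*, of the abscission machinery, was at -0.15 (limma adjusted p = 0.317).

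The 6 genes grouped under roles in most cells, an assignment that was not tested here, all passed the filter. Of these, 5 had the lower and 1 the higher mean in Mutant, the median log2 fold change was -0.25, and their groups did not overlap (7.59% of all genes tested lower, 7.31% higher). Summed FPKM was 183, 190 and 146 in WT and 136, 131, 131 and 129 in Mutant, so the library labelled WT replicate 3 was the lowest WT library but above all Mutant libraries. Without it 2 of the 6, *Tex10* and *Tex30*, fell past the threshold (3.99% of all genes tested).

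*Tex10* (chromosome 4 from 48430956 to 48473422) encodes a subunit of the Rix1 complex, which matures the large ribosomal subunit, and a factor of pluripotent cells. It was at 72.8, 62.9 and 45.8 FPKM in WT and 39.6, 39.4, 39 and 36.9 FPKM in Mutant. The 4 Mutant libraries had a coefficient of variation of 3.22%, against 22.6% in WT, and none reached a WT value. WT averaged 60.5 ± 13.6 (SD, n = 3) and Mutant 38.7 ± 1.25 (SD, n = 4), for a log2 fold change of -0.61 (SE 0.14, limma adjusted p = 0.168, exact permutation p = 0.0286) with all libraries and -0.80 (adjusted p = 0.00587) without the library labelled WT replicate 3. At one end 998 bases of *Tex10* overlap *Invs* (8.58 FPKM) on the other strand, and reads there cannot be told apart in libraries without strand. The 6 listed genes that work with it in the Rix1 pathway had the lower mean in Mutant as well (47.9% of all genes tested). Their median was -0.26. The smallest unadjusted p-values were those of *Mdn1* (47.3, 43.6 and 23 FPKM in WT and 21.7, 20.2, 19.7 and 17.8 FPKM in Mutant; log2 fold change -0.86, limma adjusted p = 0.174) and *Senp3* (-0.27, adjusted p = 0.231). *Mdn1* and *Senp3* fell past the threshold without the library labelled WT replicate 3 (3.99% of all genes tested).

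*Tex30* (chromosome 1 from 44086617 to 44102388), which encodes a protein with a hydrolase fold, was at 45.4, 65.3 and 40 FPKM in WT and 33.1, 33.4, 33.2 and 32.7 FPKM in Mutant. The Mutant libraries had a coefficient of variation of 0.813% and all lay below every WT library. The log2 fold change was -0.56 (SE 0.14, limma adjusted p = 0.173) and -0.71 (adjusted p = 0.0259) without the library labelled WT replicate 3. *Tex2* (chromosome 11 from 106502139 to 106612930), a lipid transfer protein of the endoplasmic reticulum, was at 11.4, 9.06 and 7.72 FPKM in WT and 7.51, 7.36, 7.17 and 6.49 FPKM in Mutant. Its log2 fold change was -0.36 (SE 0.12, limma adjusted p = 0.22) and -0.48 (adjusted p = 0.0515) without that library.

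The other 3 genes of the group had small differences. *Tex264* (chromosome 9 from 106658746 to 106685952), a receptor that takes endoplasmic reticulum to autophagy, was at 26, 24.5 and 24.4 FPKM in WT and 22.9, 21, 22.8 and 22.9 FPKM in Mutant, a log2 fold change of -0.15 (SE 0.06, limma adjusted p = 0.267), or -0.17 (adjusted p = 0.201) without the library labelled WT replicate 3. The 6 listed ER-phagy genes were split, with 3 lower and 3 higher means and a median of -0.06, and those with the smallest p-values were *Ccpg1* (-0.35, adjusted p = 0.214) and *Calcoco1* (-0.15, adjusted p = 0.263). Without that library 1 of the 6, *Ccpg1*, fell past the threshold (limma adjusted p = 0.019), as did 3.99% of all genes tested. *Tex261* (chromosome 6 from 83770414 to 83775812), of the COPII vesicle pathway, was the only member with the higher mean in Mutant, at 21.1, 22.8 and 22.5 FPKM in WT and 27.6, 24.7, 24.2 and 24.9 FPKM in Mutant. Each Mutant library was above each WT library, with a log2 fold change of 0.19 (SE 0.07, limma adjusted p = 0.225) that was 0.20 (adjusted p = 0.167) without the library labelled WT replicate 3. *Tex9* (chromosome 9 from 72458055 to 72491959) was at 5.95, 5.55 and 5.34 FPKM in WT and 4.92, 5.34, 4.74 and 5.32 FPKM in Mutant, where Mutant replicate 2 and the library labelled WT replicate 3 came out alike after rounding. Its log2 fold change was -0.13 (SE 0.08, limma adjusted p = 0.436), or -0.17 (adjusted p = 0.337) without that library, and 522 of its bases overlap *Mns1* (20.8 FPKM) on the other strand.

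Of the 13 remaining genes only *Tex21* and *Tex40* passed the filter. *Tex21* (chromosome 12 from 76198690 to 76246746) was at 6.34, 6.15 and 1.47 FPKM in WT and 2.14, 1.26, 1.47 and 1.51 FPKM in Mutant, and the library labelled WT replicate 3 lay within the Mutant values. Its log2 fold change was -1.11 (SE 0.41, limma adjusted p = 0.237) and -1.70 (adjusted p = 0.00628) without that library. *Tex40*, now named *Catsperz* and part of the calcium channel of the sperm tail (chromosome 19 from 6922426 to 6925380), ranged from 0.267 to 1.02 FPKM with both extremes in Mutant. The log2 fold change was -0.26 (SE 0.23, limma adjusted p = 0.598), and the groups overlapped with or without that library.

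WT replicates 1 and 2 were set against the library labelled WT replicate 3 gene by gene, as a description of the spread within WT. The mean of the first 2 was 14.3 times that of the third for *Tex101*, between 3.28 and 4.84 times for *Tex13*, *Tex19.2*, *Tex15*, *Tex21*, *Tex16* and *Tex12*, 2.57 for *Tex14*, 2.06 for *Tex11* and 1.9 for *Tex19.1*. For the genes with roles in most cells the ratio was between 0.974 (*Tex261*) and 1.48 (*Tex10*). Variation within Mutant was smaller for all 9 genes with germ cell roles, with coefficients of variation between 11.1% (*Tex14*) and 71.2% (*Tex101*) against 34.7% (*Tex19.1*) to 87% (*Tex101*) in WT.

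The authors counted reads on LINE, SINE and LTR elements in a separate table, and elements that lie inside 1 gene and touch no other give a second view of that gene. It is mostly a view of introns, but not for *Tex9* (84.9% of reads in exons), *Tex43* (96.3%), *Tex13* (100%) and *Tex11* (61.6%). Reads count as in exons where the element touches an exon of any GENCODE M21 gene, on either strand. Such an exon need not belong to the *Tex* gene. Libraries held between 3454317 and 4670830 reads on all elements of the table. Reads of the elements in a gene were summed, scaled to library size adjusted by TMM normalization factors (CPM) and tested with edgeR. Of the *Tex* genes, 12 had a mean of at least 10 reads. None of the 12 was past the threshold (1 of 12267 genes tested was, 0.00815%), and 4 had an unadjusted p under 0.05, all with the lower mean in Mutant (3.73% of genes tested). In 2, *Tex14* and *Tex264*, all Mutant libraries were below all WT libraries (3.25%), and in 0 above them (6.8%).

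In *Tex14*, elements within 78684 bases that overlap *Mir8115* (0 FPKM, same strand) were left out, since they touch another gene. In the rest of *Tex14*, 190 elements outside of exons held between 80 and 243 reads per library. Their level was 46.4, 37.9 and 34.9 CPM in WT and 24.3, 22, 32 and 27.5 in Mutant, and the log2 fold change was -0.59 (SE 0.15, edgeR adjusted p = 0.176). The counted intronic reads of *Tex14* thus separated the groups as its FPKM did. *Tex21* went another way: its 118 elements, with 2.01% of their reads in exons, were at 38.7, 33.9 and 45.2 CPM in WT and 28.8, 37.7, 48.1 and 41.9 in Mutant, a log2 fold change of -0.01 (SE 0.16, edgeR adjusted p = 0.988) beside -1.11 for its FPKM. The difference between both measures was not tested.

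The 3 further genes with germ cell roles had log2 fold changes of repeat reads of -0.41 for *Tex11* (61.6% of reads in exons), -0.43 for *Tex15* and -0.33 for *Tex13* (all reads in exons), with adjusted p-values from edgeR of 0.406, 0.615 and 0.767. Repeat reads of *Tex10* gave -0.25 (SE 0.10, edgeR adjusted p = 0.331) and those of *Tex264* -0.38 (SE 0.17, edgeR adjusted p = 0.407), where *Tex264* was at 19.7, 19.6 and 19.6 CPM in WT and 15, 11.8, 18.8 and 14.7 in Mutant. *Tex2* and *Tex30* were both at -0.14, *Tex261* at -0.11 and *Tex9* at 0.06, each smaller than its standard error or about as large. *Tex43*, below the FPKM filter, had 3 to 21 reads per library and a log2 fold change of 0.44 (SE 0.49). Without the library labelled WT replicate 3 none of the 12 was past the threshold (0.766% of genes tested), and the lowest adjusted p-values were 0.0583 for *Tex11* and 0.0802 for *Tex14*. In *Tex28* and *Tex29*, listed at 0 FPKM, elements held 4 and 21 reads over all 7 libraries.

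**Figure D4:**
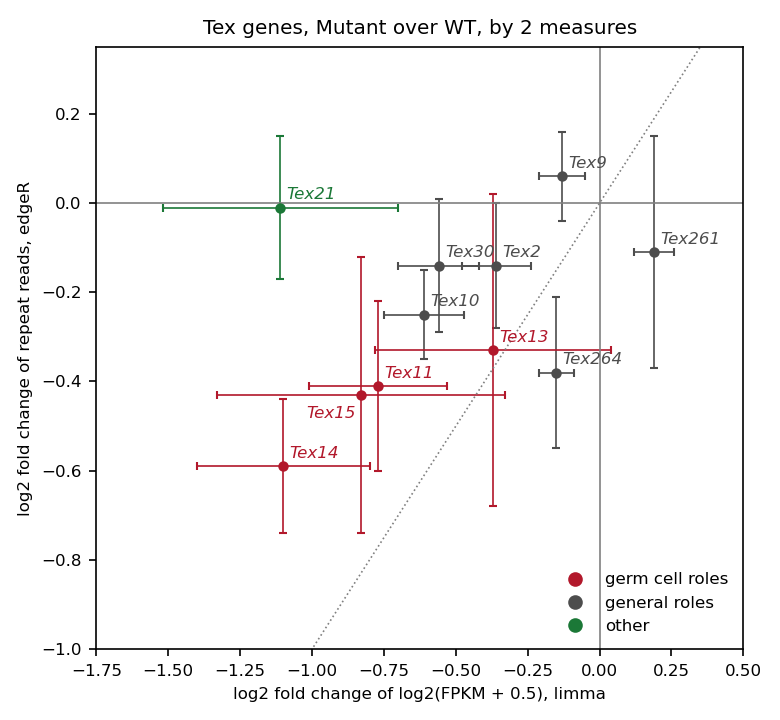
Log2 fold change (Mutant over WT) of FPKM (x axis, limma) and of reads on repeat elements inside the same gene (y axis, edgeR) for the 11 Tex genes tested in both, with standard errors and a dotted line where both are equal. Tex14 is low on both axes, at -1.10 and -0.59, while Tex21 is at -1.11 on the x axis and at -0.01 on the y axis.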

How the data were processed

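Reads that passed a filter on base quality were aligned by the authors to mm10 using TopHat2 2.0.12 as libraries without strand and with up to 10 hits per read, and turned into FPKM by Cuffnorm on RefSeq gene models. The deposited FPKM values carry the library scaling of that workflow. The authors also made counts of uniquely mapped reads per RepeatMasker element with HTSeq, and these deposited counts are not normalized. Both headers lack the tab between WT replicate 3 and Mutant replicate 1. The joined cell holds both names in order and each line has 7 values, so these 2 columns were read in that order.

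FPKM was tested as log2(FPKM + 0.5) with limma 3.58.1 (two-sided, lmFit and eBayes with a variance trend, R 4.3.3) for 13988 genes that averaged 0.5 FPKM or more. Benjamini-Hochberg adjusted p-values were called below 0.05. The repeat table held 3494995 elements, which were placed with bedtools 2.31.1. Counts of those inside 1 gene and touching no other were summed per gene. The sums were tested by quasi-likelihood in edgeR 4.0.16 (TMM) where a gene averaged 10 reads or more. For single values, exact permutation tests (two-sided) ran over 35 assignments and reached 0.0286 at best, or 0.0667 without 1 WT library. On simulated data, limma recovered 192 of 200 genes changed by 1.5 (log2, 13988 genes, 10 false calls). For edgeR it was 173 of 200 genes changed by 1 (log2, 12267 genes, 8 false calls). The changed genes were drawn only from those above a minimum level, and noise was independent between genes. Recovery of smaller changes, of genes with low values and in the presence of a library that departs in many genes was not tested. With all libraries, the largest log2 fold changes of tested *Tex* genes were -1.14 (FPKM, *Tex101*) and -0.59 (repeat reads, *Tex14*).

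The rule for the members uses symbols alone, but this gene group, the roles and the lists were chosen with earlier results of these data known. Every *Tex* gene is named, with values in each library for those with germ cell roles, an unadjusted p under 0.05 or groups without overlap, and 2 to 4 genes of each partner list by smallest p, except that single genes of the meiotic recombination list are not reported here. *Cep55*, *Syce2* and *Ubr2* were named beyond that rule after their values were seen. Alternatives were other pseudocounts, filters, scalings and weights, DESeq2 1.42.0, a replicate block and leaving out each library. Cuffdiff needs aligned reads and was not used here.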

Additional observations from a re-analysis of the deposited data

Results flagged for a closer look

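In 1 of 38 groups of 4 Mutant libraries that were examined for a value far from the others, the gap was above Dixon's critical value for 4 samples, where chance gives about 1 in 20. It was *Tex264* in Mutant replicate 2, at 21 FPKM beside 22.8, 22.9 and 22.9 in the other Mutant libraries, with a gap of 0.946 of the group's range on the log2(FPKM + 0.5) scale. The value lay further from WT than the others, so the groups did not overlap with or without it.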

How the results depend on the processing

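Over the alternatives, 240 fold changes of FPKM kept their direction and their side of the threshold, 1 turned its direction, and 12 passed the threshold without the library labelled WT replicate 3. Leaving out each library in turn gave 0 to 12 *Tex* genes past the adjusted threshold (limma), 4 to 15 with an unadjusted p under 0.05 and 7 to 16 without overlap between the groups, where the highest of each came without the library labelled WT replicate 3 and the 4 without WT replicate 1. For repeat reads (edgeR) it gave 1 to 5 with an unadjusted p under 0.05, and relative to the germ cell markers 0 to 2 without overlap. The fold change of *Tex13* ranged from -0.94 to 0.11 for FPKM and from -0.75 to 0.1 for repeat reads, with the higher values without WT replicate 1, that of *Tex21* for repeat reads from -0.13 to 0.11 and that of *Tex261* from -0.31 to 0.11. Differences relative to the markers ranged from -1.13 to 0.39 for *Tex101*, -0.2 to 0.46 for *Tex12*, -0.39 to 0.46 for *Tex15* and -0.22 to 0.59 for *Tex19.2*. With library size alone *Tex9* turned to -0.02 in repeat reads. With a pseudocount of 0.1 the relative difference of *Tex15* turned to 0.03 and that of *Tex16* to -0.08, and with *Ddx4* as the only marker that of *Tex15* turned to 0.25 and 1 gene, *Tex19.1*, had groups without overlap. The cause of these shifts was not tested. Same-numbered WT and Mutant libraries had correlations of 0.198, -0.177 and 0.229 of their deviations from group means. Those of differently numbered libraries ranged from -0.303 to 0.172. So few values cannot show whether the numbers pair the libraries. A replicate block left 2 *Tex* genes with an unadjusted p under 0.05 for repeat reads and *Tex9* at -0.00, and changed no call. Over all genes, 1 was past the threshold in FPKM, 4 without a filter, 3 after quantile normalization, 0 with the block, and between 1 and 720 when a library was left out, with the highest count without the library labelled WT replicate 3. The missing fragment numbers of FPKM and the 3 WT libraries limit the precision.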
